A study of Mus musculus with 47 samples.

Results

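Isoleucine restriction (IleR) was compared with the Control diet in the brains of female 3xTg mice. The comparison took the 5 IleR libraries, numbered 38 to 42, and the 6 Control libraries, numbered 25 to 30, which are coded F in the count table. These were 11 of the 37 libraries analysed here and of 47 labelled libraries in the series. RNA came from the left hemisphere and was sequenced to ask how lowering a single branched-chain amino acid in the diet alters gene expression in a mouse model of Alzheimer's disease. Leucine-restricted (LeuR) and valine-restricted (ValR) females, 6 libraries each, entered the fit to share its estimate of the spread and were compared directly with IleR at the end.

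Both groups were homozygous for the 3xTg genotype, so every allele of the model was also present in the Control animals. 3xTg mice carry human APP and tau transgenes, driven mainly in neurons by a Thy1 promoter, on a presenilin 1 knock-in. Control animals ate an amino acid-defined diet and IleR animals a matching diet low in isoleucine. Feeding began at 6 months of age and lasted 9 months, so that brains were taken at 15 months. The labels number the libraries without naming animals, cages or processing days, and p-values therefore measure the spread between these samples, which may in part be technical.

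Isoleucine is an essential amino acid that cells take up through transporters such as the Slc7a5 and Slc3a2 pair and either load onto tRNA or break down in mitochondria. When an amino acid runs short, uncharged tRNA activates the kinase GCN2, encoded by Eif2ak4. GCN2 slows general translation and favours that of the transcription factor ATF4, which induces Asns, amino acid transporters and many aminoacyl-tRNA synthetases. A shortage also lowers the activity of mTORC1, the kinase complex that promotes protein synthesis and restrains autophagy.

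Total counts ran from 12865400 to 18268500 in Control and from 14320100 to 21371000 in IleR libraries, and the group means differed by 1264710 (two-sided exact permutation p = 0.413). At these depths 3 counts corresponded to 0.140 to 0.233 CPM, the unit used throughout for counts scaled to a common library total. The 8 pan-neuronal markers summed to between 5585 and 8067 CPM in IleR libraries, whereas 6 liver markers summed to at most 0.981 CPM, with the fibrinogen gene Fgb at 0 in all 11 libraries. The mix of brain regions varied widely inside both groups. A cerebellum-forebrain score, the mean log2 CPM of 12 cerebellar markers minus that of 12 forebrain markers, ran from -6.92 to 1.76 in IleR and from -6.94 to 3.48 in Control. Its group means differed by -0.27 on the log2 scale (two-sided exact permutation p = 0.898).

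**Figure D1:**
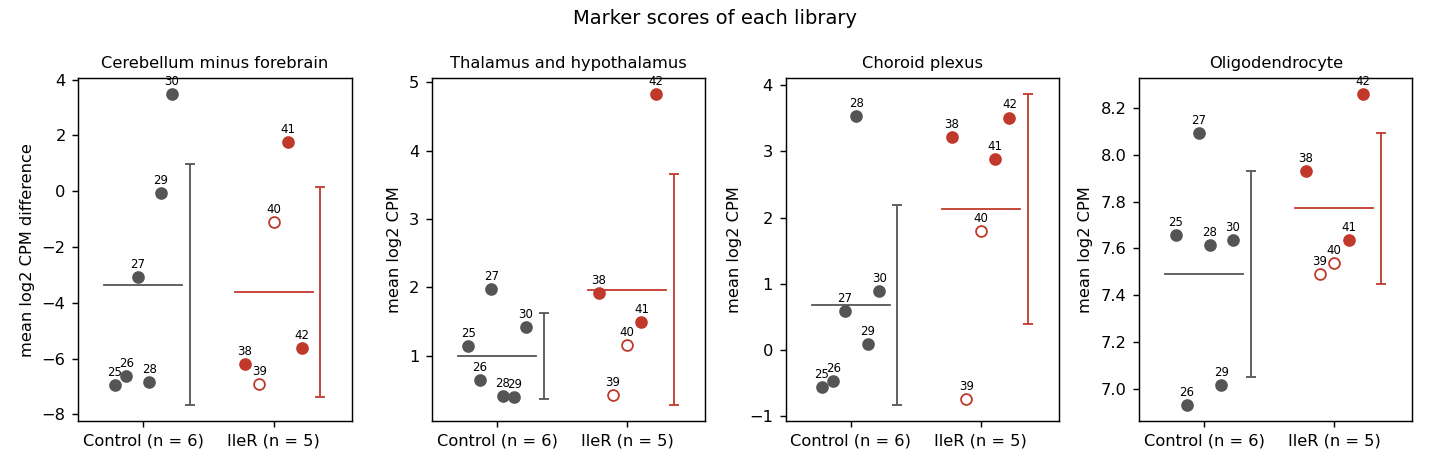
Marker scores of each numbered library (mean log2 CPM, or for the first panel the difference of 2 such means, vertical axes) for cerebellum minus forebrain, thalamus and hypothalamus, choroid plexus and oligodendrocytes, with lines and bars for the mean ± SD of 6 Control and 5 IleR libraries and open circles for IleR 39 and IleR 40. The first score spans -6.94 to 3.48 in Control and -6.92 to 1.76 in IleR, and the groups overlap in every panel.

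Markers of the thalamus and hypothalamus and of the choroid plexus also varied. The 12 thalamic and hypothalamic markers summed to 393, 40.5, 105, 219 and 676 CPM in IleR 38 to 42 and to between 42.6 and 372 CPM in Control. The mean log2 level of the 9 of them that passed the filter was 0.97 higher in IleR (two-sided exact permutation p = 0.203, adjusted p = 0.955 over 16 lists by Benjamini-Hochberg). The 10 choroid plexus markers summed to between 8.21 and 577 CPM in IleR and between 15.0 and 743 CPM in Control, a mean log2 difference of 1.46 (exact permutation p = 0.167, adjusted p = 0.955). Without IleR 39 and IleR 40 the differences were 1.75 (exact permutation p = 0.0357, adjusted p = 0.476) and 2.53 (exact permutation p = 0.0595, adjusted p = 0.476). In bulk tissue, fewer cells of a type and less RNA per cell cannot be told apart.

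IleR 39 and IleR 40 stood apart from the other female libraries in a set of genes. Among genes at 1 CPM or more in IleR 39, both exceeded 2 times the highest of the other 21 female libraries in 66. Of these, 27 (40.9%) were pseudogenes and 21 were protein-coding. 19 of the 66 lay on chromosome 4, and 15 of the 19 lay between positions 41769467 and 43053254 (GRCm38). The opposite, a level in both below that of all the others by the same factor, was found for 5 genes. That count took only genes above a floor in each of the other 21 libraries, so it does not mirror the 66. Genes of the 2 sets together, named here after their values were seen, made up 14 of the 20 smallest p-values of the comparison. Protein-coding examples were the chemokine gene Ccl27a, at 92.0 and 65.8 CPM in IleR 39 and IleR 40 against 6.85 to 28.5 CPM elsewhere, and the class I histocompatibility gene H2-Q7, at 12.7 and 9.82 CPM against 0.543 to 3.86 CPM. Their identity to related genes was not measured.

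The clearest case was a pair of genes for the ribosomal protein S3A. Rps3a3, a copy of Rps3a1, had 56.0 and 35.8 CPM in IleR 39 and IleR 40, and between 0 and 0.137 CPM in the other 9 libraries. Rps3a1 showed the opposite, with 100 and 159.5 CPM against 227 to 259 CPM. The sum of Rps3a1, Rps3a2 and Rps3a3 was 238 and 248 CPM in these 2 libraries and 229 to 262 CPM in the others, so the total lay within the range of the other libraries while its split between copies did not. The same held for enolase 1: Eno1b had 313 and 207 CPM against 1.20 to 3.64 CPM, Eno1 had 495 and 541 CPM against 617 to 915 CPM, and their sum was 808 and 748 CPM against 619 to 917 CPM. For the ribosomal protein L34 the copy Rpl34-ps1 had 18.2 and 11.1 CPM against at most 0.206 CPM, and Rpl34 had 37.2 and 48.7 CPM against 61.0 to 75.8 CPM. Their sum, 55.4 and 59.8 CPM, lay below the 61.1 to 76.0 CPM of the other libraries. The parent did not stand apart in every pair. Atp6v0c-ps2, a copy of a proton pump subunit gene, had 37.2 and 23.3 CPM against 0.436 to 1.40 CPM, but Atp6v0c had 615 and 590.0 CPM, inside the 506 to 680 CPM of the others. For the initiation factor gene Eif3j1 the parent had 33.1 and 44.8 CPM against 56.2 to 61.7 CPM and the copy Eif3j2 18.3 and 12.0 CPM against 0.789 to 2.50 CPM, and for Rps13 the parent had 60.1 and 62.5 CPM against 67.6 to 90.1 CPM and the copy Rps13-ps1 13.4 and 8.24 CPM against at most 0.289 CPM.

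**Figure D2:**
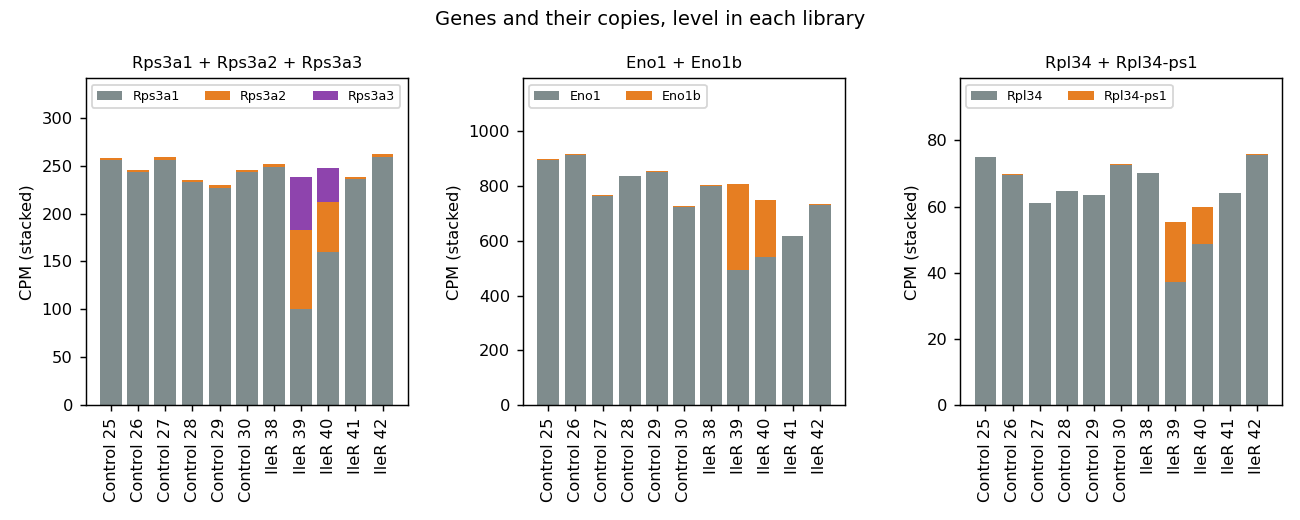
Stacked bars of the level (CPM, vertical axis) of a parent gene and its near-identical copies in each of 6 Control and 5 IleR libraries, for Rps3a1, Eno1 and Rpl34. The coloured copy segments are near 0 in 9 libraries and reach 313 CPM (Eno1b) in IleR 39, while the grey parent segments are shortest in IleR 39 and IleR 40.

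Reads from such copies are hard to assign, since few bases differ. Over the coding bases aligned, Rps3a3 matched Rps3a1 at 783 of 791 bases (98.99%), Rpl34-ps1 matched Rpl34 at 351 of 353 (99.43%), Atp6v0c-ps2 matched Atp6v0c at 464 of 465 (99.78%) and Eif3j2 matched Eif3j1 at 781 of 781 (100%). Windows of 60 bases are shown to let a reader see how alike the copies are, with the bases that differ inside the window in capitals; differences outside the window and outside the coding bases are not shown (GENCODE M21 transcripts, GRCm38, 5′ to 3′).
Rps3a1: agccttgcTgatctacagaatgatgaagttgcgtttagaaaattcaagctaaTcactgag
Rps3a3: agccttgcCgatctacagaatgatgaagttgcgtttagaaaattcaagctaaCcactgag
Rpl34: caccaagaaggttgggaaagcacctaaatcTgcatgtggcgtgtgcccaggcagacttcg
Rpl34-ps1: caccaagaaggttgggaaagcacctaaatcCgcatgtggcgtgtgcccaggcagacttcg
Atp6v0c: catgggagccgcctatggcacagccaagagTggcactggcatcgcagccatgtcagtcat
Atp6v0c-ps2: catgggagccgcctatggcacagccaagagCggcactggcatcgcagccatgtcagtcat
Whether these 2 libraries carry different sequence from the others was not tested. In edgeR the log2 difference of IleR minus Control was 5.53 for Eno1b and 3.54 for Rps3a2, and 0.07 and 0.26 without IleR 39 and IleR 40.

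Across all genes, no gene differed between IleR and Control at an adjusted p under 0.05. Of 20344 genes tested by quasi-likelihood in edgeR, with p-values adjusted by Benjamini-Hochberg, 0 (0%) were called, and the smallest adjusted p was 0.140, shared by copies such as Rps3a3 and Eno1b. At an unadjusted p under 0.05 there were 577 genes, of which 277 (1.36%) were higher and 300 (1.47%) lower in IleR. Leaving out 1 library in turn moved this count to between 459, without Control 25, and 892, without Control 27. By limma voom 1 gene was called, the low-count Gm45410, with 0 counts in every Control library and 1 to 6 in IleR libraries. By DESeq2 8 were called, namely Eno1b, Rps3a2, Rps3a3, Rpl34-ps1, Atp6v0c-ps2, Gm5859, Eif3j2 and Pttg1. All 8 had their highest values in IleR 39 and IleR 40. Gm45410, Rps3a3, Rpl34-ps1 and Gm5859 had at least 1 count in every IleR library but not in every Control library. They thus met the filter on low counts in the group where they were high and not in Control.

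Groups that did not overlap were rare. All 5 IleR libraries lay above all 6 Control libraries in 22 genes (0.108%) and below them in 29 (0.143%). With the cerebellum-forebrain score as a covariate, 0 genes were called by edgeR and 939 had an unadjusted p under 0.05, 414 (2.03%) higher and 525 (2.58%) lower. Without Control 27 the 939 became 1574. With this covariate limma voom called 0 genes and DESeq2 called 14. Of these, 10 were higher and 4 lower in IleR, the lower ones being Gm44677, Zfp933, Ly6c1 and Eno1. Without IleR 39 and IleR 40, edgeR called 0 of 21027 genes and 539 had an unadjusted p under 0.05, 323 (1.54%) higher and 216 (1.03%) lower. In the fit with all libraries and no covariate, 13807 genes had an average log2 CPM of at least 1. The 95% interval of their log2 difference lay within ±0.5 for 66.7% and within ±1 for 91.2%. Without IleR 39 and IleR 40 these shares were 58.1% and 86.6%.

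In the edgeR test of IleR against Control no gene passed the adjusted threshold, and p-values given below for single genes are unadjusted values from that test unless named otherwise. On the list of the integrated stress response, to which the ATF4 targets belong, Asns and Atf5 had the smallest p-values, both with higher means in IleR. Asns, which encodes asparagine synthetase and is an ATF4 target, ran from 85.2 to 101 CPM in Control with a median of 99.7 CPM. In IleR 38 to 42 it was at 135, 113, 109.8, 111 and 141 CPM. All 5 IleR values lay above all Control values, and the means were 122 ± 14.6 (SD, n = 5) and 96.3 ± 6.36 CPM (SD, n = 6). The log2 difference was 0.34 (SE 0.11, 95% interval 0.12 to 0.56, unadjusted p = 0.00429). With the cerebellum-forebrain score it was 0.34 (unadjusted p = 0.00242), and without IleR 39 and IleR 40 it was 0.42 (SE 0.12, unadjusted p = 0.0028). Asns (ENSMUSG00000029752) lies on the minus strand of chromosome 6, from 7675169 to 7693254 in GRCm38.

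Atf5 (ENSMUSG00000038539, chromosome 7, 44812256 to 44816658), a transcription factor of the same stress response, ran from 25.0 to 36.2 CPM in Control. In IleR 38 to 42 it was at 41.3, 26.3, 33.1, 55.3 and 43.0 CPM, so IleR 39 and IleR 40 lay inside the Control range and the other 3 above it. Its log2 difference was 0.43 (SE 0.13, 95% interval 0.15 to 0.71, unadjusted p = 0.0041), 0.28 without IleR 41 and 0.65 without IleR 39 and IleR 40 (SE 0.11, unadjusted p = 1.12e-05, adjusted p = 0.236 by edgeR with Benjamini-Hochberg). The cationic amino acid transporter Slc7a3, named after its values were seen, was at 22.2, 11.3, 11.5, 18.6 and 24.0 CPM in IleR and between 8.20 and 16.6 CPM in Control. Its log2 difference was 0.67 (SE 0.24, unadjusted p = 0.0112), and 0.97 without IleR 39 and IleR 40 (unadjusted p = 0.000774).

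Of the 22 genes on the integrated stress response list, 21 were tested, 2 were higher at an unadjusted p under 0.05 beside 1.36% of all genes, and none lower. Their median log2 difference was 0.14 and 17 were positive, whereas the median of all tested genes was -0.01 and 9509 of 20344 were positive. With the score 3 were higher, beside 2.03% of all genes, and without IleR 39 and IleR 40 4 were, beside 1.54%, with a median of 0.21. The mRNA of Atf4 itself, which is controlled largely at translation, was at 109, 126, 119, 116 and 125 CPM in IleR and 106 to 128 CPM in Control, a log2 difference of 0.01 (95% interval -0.20 to 0.22). Eif2ak4, chosen after its values were seen, had a log2 difference of 0.15 (unadjusted p = 0.114).

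**Figure D3:**
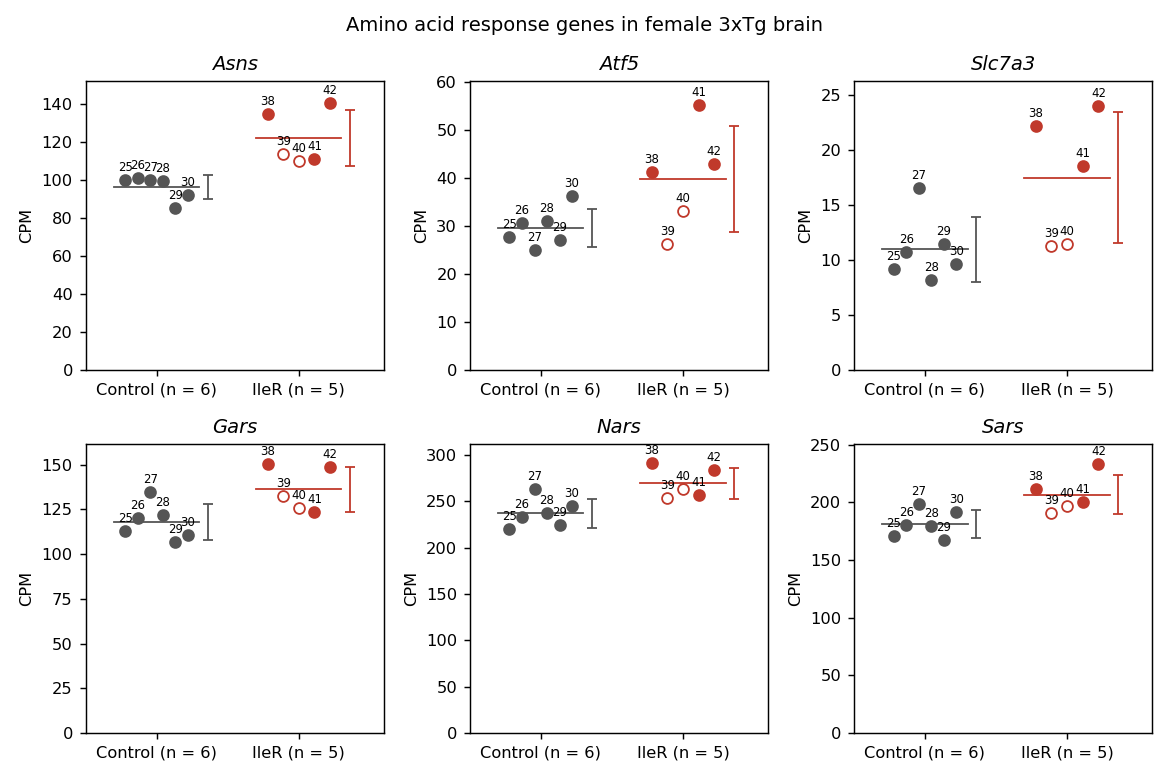
Level (CPM, vertical axes from 0) of Asns, Atf5, Slc7a3, Gars, Nars and Sars in each numbered library, with lines and bars for the mean ± SD of 6 Control and 5 IleR libraries and open circles for IleR 39 and IleR 40. All 5 IleR values of Asns (109.8 to 141 CPM) lie above the Control values (85.2 to 101 CPM), while the ranges of the other 5 genes overlap.

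Aminoacyl-tRNA synthetases, which load amino acids onto tRNA, showed 3 of 20 members higher at an unadjusted p under 0.05 and 0 lower, with a median log2 difference of 0.07 and 16 positive. Of all genes 1.36% were higher at that threshold and 9509 of 20344 were positive. Gars, for glycine, was at 150.4, 132, 126, 123 and 149 CPM in IleR and 107 to 135 CPM in Control, a log2 difference of 0.21 (SE 0.08, unadjusted p = 0.0128) that was 0.26 without IleR 39 and IleR 40 (unadjusted p = 0.0106). Sars, for serine, was at 211, 190.4, 197, 200.5 and 233 CPM in IleR and 167 to 198 CPM in Control, a log2 difference of 0.19 (unadjusted p = 0.0368). Nars, for asparagine, had a log2 difference of 0.19 (unadjusted p = 0.0477), with 291, 253, 264, 256 and 284 CPM in IleR and 221 to 263 CPM in Control. The IleR and Control ranges of all 3 overlapped. The synthetase for isoleucine, Iars, named after its values were seen, was at 72.7 to 78.4 CPM in IleR and 63.6 to 79.0 CPM in Control, a log2 difference of 0.07 (unadjusted p = 0.376). All 20 intervals of the list lay within ±0.5.

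The highest values of Asns, Gars, Sars and Slc7a3 were in IleR 38 and IleR 42, the same libraries that had the highest thalamic and hypothalamic sums. Prkcd, a kinase gene strongly expressed in the thalamus, is a member of that list and so a part of these sums. It was at 215 and 217 CPM in IleR 38 and IleR 42. In the other IleR libraries it was at 9.79 to 33.5 CPM, and in Control at 13.2 to 44.1 CPM. Control 27 held the highest Control values of Gars, Sars and Slc7a3. Its Atf5 value, 25.0 CPM, was the lowest of Control, and its Asns value, 100 CPM, lay below the 101 CPM of Control 26. It also had the highest thalamus and hypothalamus score of the Control libraries, 1.97, beside 1.92 in IleR 38 and 4.83 in IleR 42. With this score as a covariate, chosen after seeing the data, the log2 difference was 0.32 for Asns (unadjusted p = 0.0102), 0.40 for Atf5 (unadjusted p = 0.00998) and 0.48 for Slc7a3 (unadjusted p = 0.0401). Of the synthetases Gars stayed under 0.05 (0.20, unadjusted p = 0.0231), while Sars (0.16, unadjusted p = 0.0811) and Nars (0.18, unadjusted p = 0.0640) did not. The part of regional mix in these differences was not tested.

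ATF4 binds composite sites in which a C/EBP half-site meets an ATF half-site. The letters TGATGNAAN were searched on both strands of the 250 bases before each gene's start, as the only motif, and matched 1129 of 32851 promoters (3.44%), or 1052 of 27025 genes (3.89%). They matched 6 of 20 integrated stress response genes found in the table, Atf3, Asns, Chac1, Slc7a11, Nupr1 and Fgf21, and 3 of 13 synthetases found there, Gars, Aars and Tars. The windows of Asns and Gars are shown because these are the members described above that hold a match, in capitals (RefSeq, GRCm38.p6, 5′ to 3′ of each gene's strand). Of the other genes described above, Atf4, Atf5, Eif2ak4, Sars and Iars held no match. Nars and Slc7a3 were not among the promoters searched. The Asns window is chr6:7693210-7693269 on the minus strand, with the match starting 23 bases before the start, inside the wider gene span given above because the RefSeq start used here lies downstream of the outermost annotated one. The Gars window is chr6:55037941-55038000 on the plus strand, with the match starting 31 bases before.
Asns: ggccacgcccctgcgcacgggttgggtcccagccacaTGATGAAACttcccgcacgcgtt
Gars: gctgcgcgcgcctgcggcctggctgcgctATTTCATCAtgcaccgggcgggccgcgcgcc
A match is a description of the letters and not a measured binding site.

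Genes that handle the branched-chain amino acids themselves held no member at an unadjusted p under 0.05. All 7 transport genes tested had an unadjusted p above 0.05, with a median log2 difference of 0.06. Slc7a5, the light chain of the main branched-chain transporter, differed by 0.07 and its partner Slc3a2 by 0.12. All 8 genes of the transaminases and the branched-chain ketoacid dehydrogenase also had p above 0.05, with a median of 0.03, and the cytosolic and mitochondrial transaminases Bcat1 and Bcat2 differed by 0.13 and -0.15. The 12 genes that break down isoleucine and valine had a median of 0.00, and all 12 intervals lay within ±0.5.

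The mTORC1 and autophagy lists likewise held no member at an unadjusted p under 0.05. The 34 mTORC1 genes had a median log2 difference of -0.02, with 30 intervals within ±0.5, and the 38 autophagy genes a median of -0.00, with 37 within ±0.5. With the cerebellum-forebrain score Mlst8, a subunit of mTORC1, and Tsc2, its inhibitor, were lower at an unadjusted p under 0.05, as was the autophagy receptor gene Calcoco1, beside 2.58% of all genes; Tsc2 and Calcoco1 are named after their values were seen. Among the 13 genes whose proteins the study assayed, 10 intervals lay within ±0.5 and none had p under 0.05. Rps6, the ribosomal protein whose phosphorylation reports mTORC1 activity, differed by -0.00 (95% interval -0.15 to 0.15), the autophagosome gene Map1lc3b by 0.04 (-0.12 to 0.20), the receptor Sqstm1 by 0.03 (-0.20 to 0.25), Becn1 by -0.05 (-0.23 to 0.13) and Atg16l1 by -0.03 (-0.16 to 0.10). Levels of mRNA do not report phosphorylation or protein amount.

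**Figure D4:**
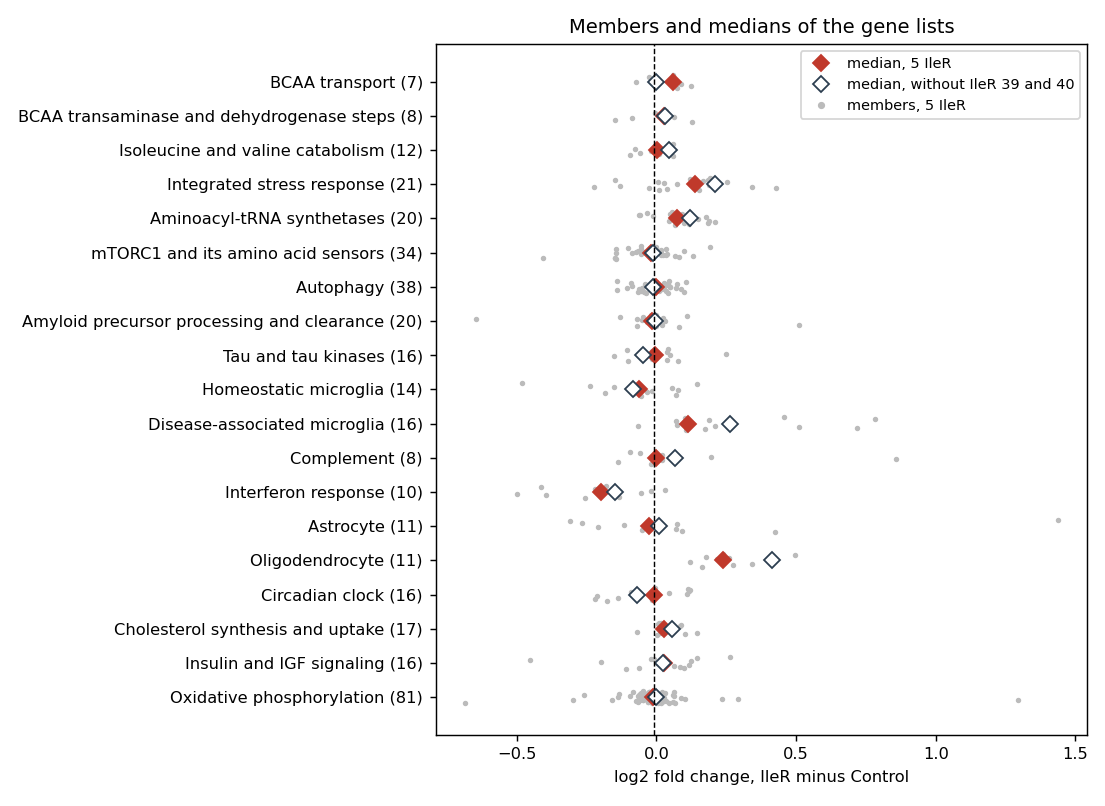
Log2 differences of IleR minus Control (horizontal axis) for the tested genes of each list, with the number of genes in brackets, 1 grey point a gene, a filled diamond for the median with 5 IleR libraries, an open one for that without IleR 39 and IleR 40, and a dashed line at the median of all genes (-0.01). The medians of the mTORC1 (-0.02) and autophagy (-0.00) lists lie beside that line, and that of the integrated stress response list is 0.14.

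Genes of amyloid and tau processing gave 1 member of each list at an unadjusted p under 0.05, both higher in IleR, beside 1.36% of all genes. App, the endogenous mouse precursor gene, was at 2176, 2136, 1944, 1584 and 2186 CPM in IleR and 1519 to 2144 CPM in Control, a log2 difference of 0.08 (95% interval -0.14 to 0.30). Of 20 amyloid genes 1 had an unadjusted p under 0.05, Bace2, a secretase that cuts App inside the amyloid peptide, at 4.61, 4.05, 3.16, 3.42 and 5.79 CPM against 2.00 to 4.05 CPM in Control (log2 difference 0.51, unadjusted p = 0.0288). Mapt, the mouse tau gene, was at 578, 479, 512, 542 and 611 CPM in IleR and 549 to 606 CPM in Control. Its lowest values were in IleR 39 and IleR 40, and its log2 difference was -0.10 (95% interval -0.24 to 0.04), or -0.02 without them. Of 16 tau genes the kinase gene Mark4 had p under 0.05 (log2 difference 0.25, unadjusted p = 0.026), and the difference was 0.12 without IleR 39 and IleR 40. The counts were made on the mouse genome, and the human transgenes were not analysed here.

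Gpnmb, a transmembrane glycoprotein of lipid-laden and disease-associated microglia, was at 5.79, 4.71, 5.20, 5.20 and 5.38 CPM in IleR and 2.25 to 3.99 CPM in Control. All IleR values lay above all Control values, and the log2 difference was 0.78 (SE 0.27, 95% interval 0.22 to 1.34, unadjusted p = 0.00845), or 0.83 without IleR 39 and IleR 40 (unadjusted p = 0.0180). It was the 1 of 16 disease-associated microglia genes with p under 0.05, beside 1.36% of all genes. Of these 16, 15 were positive, against 9509 of 20344 of all genes, with a median of 0.11, or 0.26 without IleR 39 and IleR 40. The list's mean log2 level was highest in IleR 38, 41 and 42, at 3.80, 3.65 and 3.61, where the choroid plexus scores were 3.21, 2.89 and 3.51. It was 3.01 in IleR 39, where that score was -0.75. Control libraries did not all follow this order. Control 28, with the highest choroid plexus score of the 11 libraries, 3.53, had a list mean of 3.42. In Control 27 the list mean was 3.57 at a choroid plexus score of 0.58. The part of choroid plexus content in these values was not tested. With the choroid plexus score as a covariate the difference of Gpnmb was 0.61 (unadjusted p = 0.0308). The 14 homeostatic microglia genes had a median of -0.06 and none had p under 0.05, and Aif1, the gene of IBA1, differed by -0.05 (95% interval -0.54 to 0.43).

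Serpina3n, a protease inhibitor gene of reactive astrocytes, was at 31.4, 81.8, 57.8, 13.1 and 27.9 CPM in IleR and 6.15 to 33.6 CPM in Control, a log2 difference of 1.44 (SE 0.44, unadjusted p = 0.00365). The 2 highest values were those of IleR 39 and IleR 40, and without them it was 0.62 (unadjusted p = 0.187). Gfap, the astrocyte intermediate filament, was at 411, 119, 187, 316 and 342 CPM in IleR and 138 to 365 CPM in Control, a log2 difference of 0.42 (unadjusted p = 0.226) and 0.80 without IleR 39 and IleR 40 (unadjusted p = 0.0346). Of the 11 genes on the astrocyte list 5 were positive, with a median of -0.03. Serpina3n was the 1 higher at p under 0.05, beside 1.36% of all genes, and 0 were lower. None of the 11 oligodendrocyte genes had p under 0.05, although all 11 were positive, with a median of 0.24, or 0.42 without IleR 39 and IleR 40. Their mean log2 level differed by 0.28 (exact permutation p = 0.266). It was highest in IleR 42 (8.26), Control 27 (8.09) and IleR 38 (7.93), the libraries with the highest thalamus and hypothalamus scores (4.83, 1.97 and 1.92), and the part of regional mix in it was not tested.

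**Figure D5:**
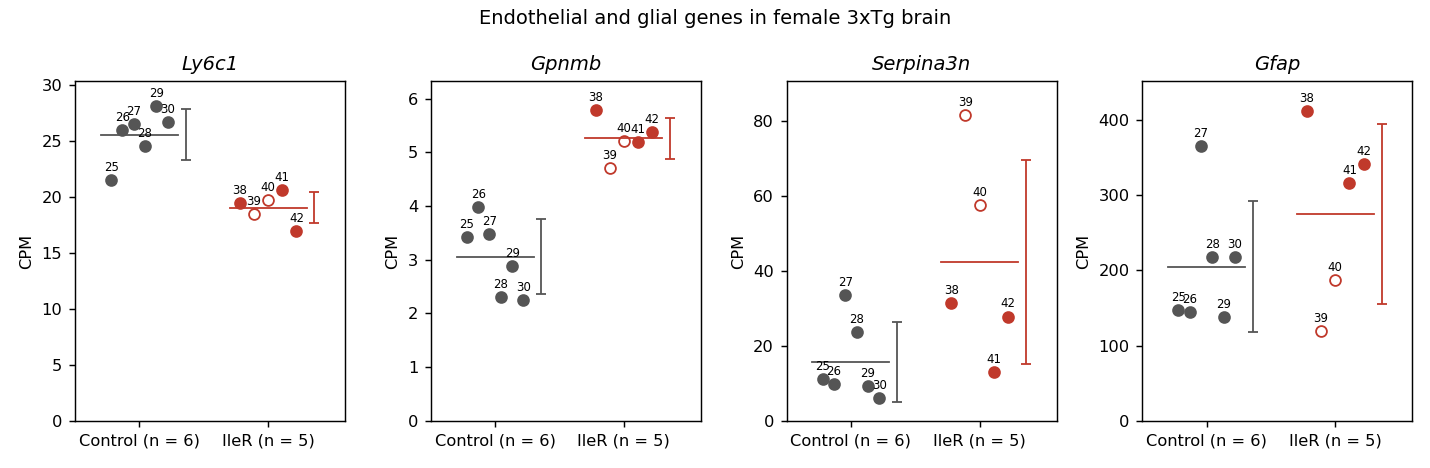
Level (CPM, vertical axes from 0) of Ly6c1, Gpnmb, Serpina3n and Gfap in each numbered library, with lines and bars for the mean ± SD of 6 Control and 5 IleR libraries and open circles for IleR 39 and IleR 40. Gpnmb is higher in all 5 IleR libraries (4.71 to 5.79 CPM) than in any Control library (at most 3.99 CPM), and Ly6c1 is lower (17.0 to 20.7 CPM against 21.5 to 28.1 CPM).

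Ly6c1 was among the 8 genes of smallest p that had lower levels in IleR. Ly6c1 (ENSMUSG00000079018, chromosome 15, 75044018 to 75048830), a surface protein of brain endothelium, was at 19.5, 18.5, 19.7, 20.7 and 17.0 CPM in IleR, a mean of 19.1 ± 1.40 (SD, n = 5), and 21.5 to 28.1 CPM in Control, a mean of 25.5 ± 2.28 (SD, n = 6). The ranges did not overlap. Its log2 difference was -0.42 (SE 0.11, unadjusted p = 0.00063, adjusted p = 0.703 by edgeR with Benjamini-Hochberg), -0.42 with the cerebellum-forebrain score (unadjusted p = 0.000244) and -0.42 without IleR 39 and IleR 40 (SE 0.13, unadjusted p = 0.00442). By DESeq2 its adjusted p was 0.0498 with the cerebellum-forebrain score and 0.155 without it. The other 7 of 8 endothelial markers had p above 0.05, and the mean log2 level of all 8, Ly6c1 included, differed by -0.08.

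Other genes of small p had modest differences. Hddc3 was at 15.4, 18.9, 18.4, 17.3 and 18.1 CPM in IleR and 12.5 to 15.2 CPM in Control, a log2 difference of 0.34 (unadjusted p = 0.00161). Srrt, a gene of RNA processing, was at 129, 117, 126, 124 and 128 CPM against 136 to 161 CPM, a log2 difference of -0.22 (unadjusted p = 0.00204). For others the value moved with IleR 39 and IleR 40. The zinc finger gene Zfp933 was at 18.1, 7.06, 11.5, 19.6 and 13.5 CPM against 20.1 to 24.4 CPM, a log2 difference of -0.68 that was -0.39 without them (adjusted p = 0.0270 by DESeq2 with the cerebellum-forebrain score and all libraries), and Pop4, a ribonuclease P subunit gene, was at 8.34, 18.0, 13.8, 9.46 and 8.56 CPM against 7.37 to 8.24 CPM, with 0.58 and 0.18.

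IleR was contrasted directly with the other restricted diets in the same fit, to which the Control libraries contributed only the scaling, the filter and the estimate of the spread. Between IleR and LeuR edgeR called 0 genes (1250 with an unadjusted p under 0.05, smallest adjusted p 0.154), and between IleR and ValR 0 (847, smallest adjusted p 0.123). The IleR difference was also compared with that of male mice, 3 IleR against 4 Control libraries. By edgeR's interaction test, 22 of 22465 genes differed at an adjusted p under 0.05, all with a higher value of the diet difference in females. They include the forebrain transcription factor gene Tbr1, named after its values were seen, which averaged 115 and 123 CPM in female Control and IleR but 138 and 1.22 CPM in male Control and IleR. The cerebellum-forebrain score was 4.20 in male IleR on average and -6.13 in male Control. With the score as a covariate 0 genes were called (1975 with an unadjusted p under 0.05), and without IleR 39 and IleR 40 0 were called (2759).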

How the data were processed

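Brain RNA of female 3xTg mice was sequenced by the authors, and the deposited tables hold expected counts per Ensembl gene of GRCm38.p5, made before any normalisation (RSEM by the table names; the aligner is not given in the sources used here). Sources differ on the library kit (total RNA or poly-A) and on the tissue of extraction. The authors removed clear outliers after principal component analysis; their own tables of fold changes and p-values were not used. R 3.4.3, edgeR and limma are named in the submitters' processing notes. Replicate libraries all differed by more than counting noise.

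Expected counts, of which 3.69 to 4.56% per library were not whole, were rounded. A gene was kept if all libraries of any of the 4 female diet groups had 1 count or more. Symbols were found for 52083 of 55416 IDs. edgeR 4.0.16 in R 4.3.3 (TMM, quasi-likelihood test, Benjamini-Hochberg, threshold 0.05) was fitted to all 23 female libraries and contrasted IleR with Control. CPM use TMM-scaled library sizes, and scores use a prior count of 2. Alternatives were limma voom 3.58.1, DESeq2 1.42.0, other scalings and filters, covariates and left-out libraries. Scripts were checked on simulated data.

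Members and lists were chosen with earlier results of these data known. Named genes are, where the average log2 CPM reached 1, the 8 of smallest p in each direction, 5 in each direction with the score, called genes, the genes of 13 assayed proteins, and of each list the 2 of smallest p and the 2 of highest level. All other genes in the text were chosen after their values were seen. 10 labelled male libraries were not analysed here. Intervals cover the spread between libraries.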

Additional observations from a re-analysis of the deposited data

Results flagged for a closer look

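In 94 sets of 4 to 10 values the highest or lowest library was compared with its neighbours, and chance marks about 1 in 20 such sets. The choroid plexus score of Control 28 was 3.53 on the log2 scale, far from the other Control libraries. S100a10, a calcium-binding protein gene, was at 8.74 CPM in Control 27, below the other Control libraries. Gfap was at 365 CPM in the same library, above the other Control libraries. In the interaction test, 22 genes had a diet difference that differed between females and males, and with the cerebellum-forebrain score as a covariate 0 did.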

How the results depend on the processing

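The count of genes called between IleR and Control was 0, and it was also 0 with only the 11 libraries, RLE or upper-quartile scaling, no filter, edgeR's expression filter, robust fitting, the hindbrain or cerebellum-forebrain score as a covariate, and without IleR 39 and IleR 40 (chosen after seeing the data). It was 1 by limma voom, 8 by DESeq2, 3 by edgeR's newer quasi-likelihood method, 1 with the choroid plexus score, 2 with that and the cerebellum-forebrain score, and 1 with the thalamus and hypothalamus score. Leaving out 1 library in turn gave 0 to 5, with 5 without IleR 38, 4 without IleR 41 and 5 without IleR 42, in which IleR 39 and IleR 40 are a larger share of the group. With the cerebellum-forebrain score the count was 0, against 14 by DESeq2 and 3 by the newer method, and 0 to 5 without 1 library (4 without IleR 38 or IleR 41, 5 without IleR 42, 1 without Control 28). The interaction count of 22 became 0 with the score and 0 without IleR 39 and IleR 40. Of 4356 results for 168 named genes, 29 newly passed the threshold, and 210 changed sign without being called in either setting; since the reported test called 0 genes, no call could be lost. The causes were not tested. No paired analysis was possible because each library carries its own number. Depth limits genes near 3 counts, 0.140 to 0.233 CPM.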

Other observations

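Among lists not described above, the 10 interferon-response genes had 1 positive log2 difference and a median of -0.20, and none had an unadjusted p under 0.05. The 17 cholesterol synthesis genes had 16 positive differences and a median of 0.03, also with none under 0.05. Likewise none passed among 8 complement genes (median -0.00), 16 circadian clock genes (median -0.01) and 16 insulin and IGF genes (median 0.03). Of 87 ribosomal protein genes tested, Rps3a2 and Rps3a3 were higher and Rpl29, named after its values were seen, was lower (log2 difference -0.39) at an unadjusted p under 0.05, beside 1.36% higher and 1.47% lower of all genes. Without IleR 39 and IleR 40 the list held 0 higher and 0 lower, and Rpl29 differed by -0.05. Of 81 oxidative phosphorylation genes tested, 1 was higher, Cox6a2 (log2 difference 1.29, unadjusted p = 0.0199 by edgeR's quasi-likelihood test), and 1 lower, Ndufc2 (log2 difference -0.26). Without IleR 39 and IleR 40 Cox6a2 differed by 1.42 and stayed under 0.05, and the list held 0 lower. Pmch, the gene of melanin-concentrating hormone made in the hypothalamus, was chosen after its values were seen and stood at 113 CPM in IleR 42.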
